A study of Mus musculus with 9 samples.

Results

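Acute phase proteins are blood proteins that the liver makes in larger or smaller amounts during inflammation, and metallothioneins are small metal-binding proteins of the cell. The genes described here are 10 of the 35275 entries of the count table, picked by symbol: Saa1, Saa2, Saa3, Lcn2, Orm2, Hp, Hpx, Il6ra, Mt1 and Mt2. They were chosen with the value of every library and the 3 comparisons between groups already known, because single libraries stand apart in them. Their values and the differences between groups are therefore given as a description, with standard errors and without p-values. All 10 passed the filter on low counts and were among the 13151 genes tested.

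The RNA came from frozen liver of C57BL/6 mice in 3 groups of 3 libraries. One group received vehicle (PBS), one AdipoRon, an orally active compound that activates adiponectin receptors, and one AdipoRonPEG5, a PEGylated analog of AdipoRon, that is, one carrying a polyethylene glycol chain. Injections were given 2 times a day for 5 days in all groups, and the labels give 5 mg/kg for the compounds and for PBS in 1 statement, which leaves the dose of either compound uncertain. A further analog named in the labels was not analysed here. Age, sex, diet and any genetic alteration are not stated in the labels. Nothing in the labels says that the libraries of a group came from separate animals, and where p-values are given for other genes they measure only the spread between these libraries, which may be technical. The deepest library, vehicle 1, held 39473195 counts, and totals of the remaining 8 lay from 13942322 to 18508950. Expression is given as CPM, counts scaled to the library size with edgeR's TMM factors, and levels of different genes are compared only as FPKM, which are also scaled to gene length. Albumin and other hepatocyte markers together held between 72850 and 96151 CPM in every library.

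In the acute phase response, interleukin-6 reaches hepatocytes through its receptor subunit Il6ra and the shared subunit Il6st and activates STAT3, while interleukin-1 and tumour necrosis factor act through NF-kB. C/EBP factors, STAT3 and NF-kB then raise transcription of genes such as the serum amyloid A genes, and glucocorticoids strengthen many of these responses. Mt1 and Mt2 are raised by zinc and other heavy metals through the factor MTF1, which binds metal response elements (MREs), and also by glucocorticoids and oxidative stress.

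Promoters of 5 genes are shown because the 2 kinds of gene moved differently in the libraries. Each is the 250 bases before the annotated start, 5′ to 3′ on the gene's strand, from RefSeq on build GRCm38.p6. Promoter entries were matched by symbol for 9 of the 10 genes. In Saa1 (chr7:46742981-46743230, minus strand), Saa2 (chr7:46751583-46751832, plus strand) and Orm2 (chr4:63362199-63362448, plus strand), capitals mark matches to the C/EBP motif TTGCNNAA. In Mt1 (chr8:94178839-94179088, plus strand) and Mt2 (chr8:94172368-94172617, plus strand), capitals mark matches to the MRE letters TGCACNC or TGCGCNC. Both strands were searched, so that a marked stretch may be the reverse complement of the motif.
Saa1: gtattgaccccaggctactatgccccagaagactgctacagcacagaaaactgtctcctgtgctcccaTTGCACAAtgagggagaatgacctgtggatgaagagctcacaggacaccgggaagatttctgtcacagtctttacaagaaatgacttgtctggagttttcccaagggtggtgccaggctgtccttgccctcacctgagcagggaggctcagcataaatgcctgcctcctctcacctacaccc
Saa2: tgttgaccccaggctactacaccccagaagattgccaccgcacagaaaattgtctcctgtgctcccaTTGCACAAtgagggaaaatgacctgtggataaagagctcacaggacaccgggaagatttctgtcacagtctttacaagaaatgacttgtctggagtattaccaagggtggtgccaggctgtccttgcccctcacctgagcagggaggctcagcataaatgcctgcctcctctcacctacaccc
Orm2: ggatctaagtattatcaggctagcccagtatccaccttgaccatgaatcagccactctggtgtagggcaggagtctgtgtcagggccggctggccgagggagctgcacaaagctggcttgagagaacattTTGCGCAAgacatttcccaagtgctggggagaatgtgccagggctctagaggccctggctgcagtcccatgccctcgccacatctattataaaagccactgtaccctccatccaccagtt
Mt1: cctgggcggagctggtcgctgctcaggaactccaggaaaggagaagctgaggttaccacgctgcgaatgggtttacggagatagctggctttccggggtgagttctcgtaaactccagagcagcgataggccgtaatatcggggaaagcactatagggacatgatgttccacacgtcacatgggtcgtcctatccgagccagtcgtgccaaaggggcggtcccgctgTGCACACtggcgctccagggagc
Mt2: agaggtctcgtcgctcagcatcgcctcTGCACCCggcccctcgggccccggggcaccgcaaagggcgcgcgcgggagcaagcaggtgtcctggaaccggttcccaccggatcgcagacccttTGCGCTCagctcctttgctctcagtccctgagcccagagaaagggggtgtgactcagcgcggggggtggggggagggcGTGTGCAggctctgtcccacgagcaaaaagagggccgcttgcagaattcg
The Saa1 and Saa2 promoters were identical in 238 of 251 aligned columns (94.8%), and both held the same stretch TTGCACAA. The C/EBP letters were also found in the promoters of Saa3, Lcn2, Hpx and Mt2, and they occurred in 9.56% of all 32851 RefSeq promoters of this length. No match was found in the windows of Il6ra and Mt1. The MRE letters matched at 1 place in the Mt1 window and at 3 in that of Mt2, and at none in the other 7 genes; 21.4% of all promoters held at least 1 match and 1.26% at least 3. Just after the annotated start, Mt1 held 2 further MRE matches in the stretch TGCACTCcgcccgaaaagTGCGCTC and Mt2 held 1, GTGCGCA. Over the 300 bases that include these, Mt1 held 3 and Mt2 4, where 1.97% of promoters held at least 3. Whether the annotated start is the main start of transcription was not tested, so that the counts of Mt1 and Mt2 depend on the window. The STAT letters TTCNNNGAA, found in 7.02% of promoters, and an NF-kB motif, found in 1.21%, were in none of the 9 windows. These are matches of letters and do not show binding.

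Transcripts of the 10 genes took 0.628%, 0.673% and 2.82% of the counts in vehicle 1, 2 and 3. The share was 0.789%, 0.952% and 0.761% in the AdipoRon libraries and 2.16%, 1.38% and 1.32% in the AdipoRonPEG5 libraries. Vehicle 3 thus held the largest share of the 9 libraries, ahead of AdipoRonPEG5 1. Per length of transcript, Hp and Hpx were the most abundant of the 10 by group mean in each group, at 4425 ± 3042 and 3214 ± 2510.3 FPKM (SD, n = 3) in vehicle, followed by Saa1. The order of Hp and Hpx does not exceed their spread in vehicle or AdipoRonPEG5. At the other end, Il6ra was the least abundant by mean in vehicle (23.9 ± 3.98 FPKM) and AdipoRonPEG5 (15.8 ± 1.78 FPKM), as was Lcn2 with AdipoRon (9.05 ± 2.62 FPKM). In vehicle the SD of Saa1, Saa2, Saa3, Lcn2 and Orm2 was above the mean, so that their places in that group's order do not exceed the spread.

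**Figure D1:**
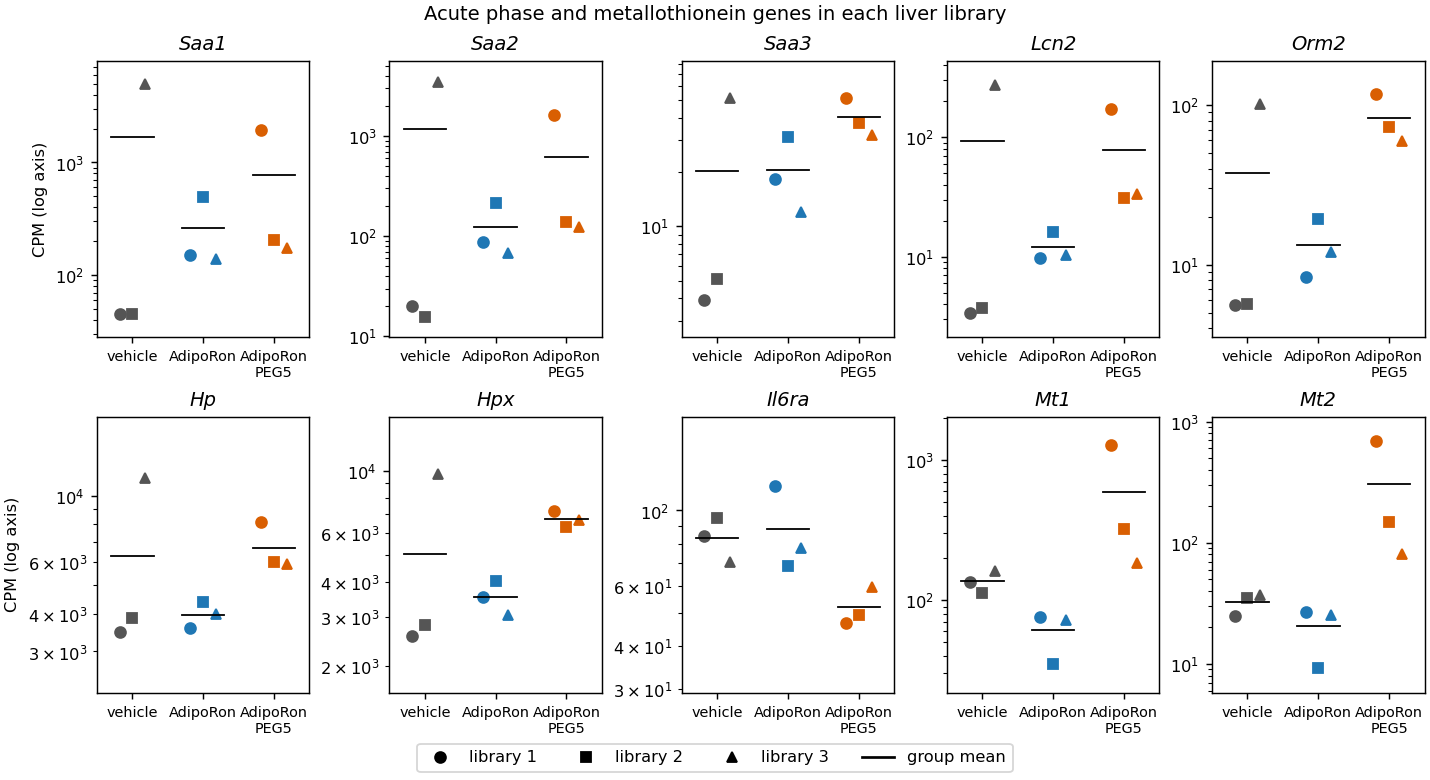
CPM (log axis) of the 10 genes in each of the 9 libraries, 1 panel per gene, 1 point per library coloured by group, and a line at the group mean. Vehicle 3 was the highest of 9 for Saa1, Saa2, Saa3, Lcn2, Hp and Hpx, whereas the 3 AdipoRonPEG5 libraries were the highest for Mt1 and Mt2.

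Saa1 and Saa2 encode the serum amyloid A proteins of plasma, which travel on high-density lipoprotein and are among the most inducible liver proteins in mice. Saa1 was at 45.4, 45.1 and 4959 CPM in vehicle 1, 2 and 3, at 152, 497 and 140.1 CPM with AdipoRon, and at 1952, 207 and 173 CPM with AdipoRonPEG5. Vehicle 1 and 2 held the lowest levels of the 9 libraries and vehicle 3 the highest, 109.6 times the mean of the other vehicle libraries, so that the vehicle range enclosed both treated groups. Within AdipoRonPEG5, library 1 was 10.3 times the mean of the other libraries. The log2 difference from vehicle was -1.11 ± 1.49 (SE) with AdipoRonPEG5 and -2.68 ± 1.57 with AdipoRon, and the difference between the compounds was 1.56 ± 1.51. Without vehicle 3 the differences from vehicle turned to 4.10 ± 1.08 and 2.54 ± 1.0 on the log2 scale. With AdipoRonPEG5 1 left out as well they were 2.08 ± 0.52 and 2.54 ± 0.50, and the difference between the compounds was -0.46 ± 0.45. The standard error for AdipoRon fell although its libraries were unchanged, because all groups share 1 estimate of spread. Both libraries were picked for standing apart in these genes, so smaller standard errors without them, here and below, do not measure precision.

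Saa2 followed the same libraries. Its levels were 20.2, 15.7 and 3498 CPM in vehicle, 88.3, 213 and 67.3 CPM with AdipoRon, and 1605, 139.7 and 125 CPM with AdipoRonPEG5. Again the vehicle libraries included both the lowest and the highest values, and AdipoRon 2 was the highest of its group. The log2 differences were -0.92 ± 1.59 for AdipoRonPEG5 against vehicle, -3.26 ± 1.72 for AdipoRon against vehicle and 2.34 ± 1.66 between the compounds. They became 2.86 ± 0.46, 2.75 ± 0.44 and 0.11 ± 0.38 without vehicle 3 and AdipoRonPEG5 1. In FPKM the ratio of Saa1 to Saa2 was 2.26, 2.90 and 1.43 in vehicle, 1.74, 2.35 and 2.10 with AdipoRon, and 1.23, 1.5 and 1.40 with AdipoRonPEG5. The 3 AdipoRonPEG5 libraries and vehicle 3 had the lowest ratios, below each of the other 5 libraries. Reads may be shared between the pair, because their transcripts were identical in 94.4% of 606 aligned bases in GENCODE M21 and the treatment of such reads in counting is unknown.

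Saa3, a serum amyloid A made in macrophages and fat as well as in liver, varied less. It was at 3.88, 5.08 and 51.6 CPM in vehicle, at 18.2, 31.4 and 12 CPM with AdipoRon, and at 51.3, 37.6 and 32.3 CPM with AdipoRonPEG5. All 3 AdipoRonPEG5 libraries were above all 3 AdipoRon libraries, and all 6 treated libraries lay between vehicle 2 and vehicle 3. The log2 difference from vehicle was 1.07 ± 0.76 with AdipoRonPEG5 and 0.10 ± 0.77 with AdipoRon, and 3.22 ± 0.38 and 2.25 ± 0.38 without vehicle 3. The FPKM ratio of Saa1 to Saa3 was 84.3 in vehicle 3 and 33.4 in AdipoRonPEG5 1, and between 4.70 and 13.86 in the other 7 libraries. In vehicle 3 and AdipoRonPEG5 1, Saa1 was thus higher relative to Saa3 than elsewhere. Summed macrophage markers were between 214 and 305 CPM in vehicle, 504 and 892 CPM with AdipoRon, and 796 and 814 CPM with AdipoRonPEG5. Of 15 tested markers, 14 rose with AdipoRonPEG5 against vehicle and 11 with AdipoRon, where 9.55% and 3.80% of all genes were called higher. In bulk tissue, more cells of a type and more RNA per cell cannot be told apart, and the part of macrophages in the Saa3 level was not tested.

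Lcn2, a protein that binds bacterial iron carriers and limits their use of iron, was at 3.39, 3.74 and 271 CPM in vehicle. With AdipoRon it was at 9.75, 16.2 and 10.4 CPM, and with AdipoRonPEG5 at 171, 31.0 and 33.7 CPM. Every AdipoRonPEG5 library was above every AdipoRon library, and vehicle 3 stood 75.9 times above the mean of the other vehicle libraries. The log2 difference between the compounds was 2.68 ± 1.38, and 1.42 ± 0.19 without the same 2 libraries, while the difference of AdipoRonPEG5 from vehicle went from -0.22 ± 1.24 to 3.20 ± 0.24. Lcn2 is also stored in neutrophil granules. Summed neutrophil markers were at 1.57 to 2.60 CPM in vehicle, 4.37 to 5.22 CPM with AdipoRon and 4.81 to 10.9 CPM with AdipoRonPEG5, and the neutrophil genes Ly6g and Mmp8 had no count in any library. Prtn3, a protease of neutrophil granules that was not in that list and was added after its values were seen, was at 0.617, 0.673 and 29.2 CPM in vehicle, 0.617, 3.44 and 0.547 CPM with AdipoRon, and 2.22, 0.467 and 0.370 CPM with AdipoRonPEG5. It was thus highest in vehicle 3, as Lcn2 was. The listed neutrophil genes did not share this: Elane and Mpo had 18 and 2 counts over all 9 libraries, against 392 for Prtn3 in vehicle 3 alone. The summed markers were at 2.60 CPM in vehicle 3 and were highest in AdipoRonPEG5 1, at 10.9 CPM. The part of neutrophils in the Lcn2 level was not tested.

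Orm2 encodes an alpha-1-acid glycoprotein, a plasma carrier of lipophilic drugs. It was at 5.6, 5.68 and 102 CPM in vehicle, at 8.33, 19.2 and 12 CPM with AdipoRon, and at 118, 72.4 and 59.5 CPM with AdipoRonPEG5. AdipoRonPEG5 1 held the highest value here, and the lowest AdipoRonPEG5 library was above the highest AdipoRon library. The log2 difference between the compounds was 2.65 ± 0.93 with all libraries and 2.32 ± 0.25 without vehicle 3 and AdipoRonPEG5 1. Against vehicle it was 1.18 ± 0.86 with AdipoRonPEG5 and -1.46 ± 0.92 with AdipoRon, and without vehicle 3 it was 3.88 ± 0.38 and 1.23 ± 0.37.

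Haptoglobin (Hp) binds free haemoglobin and hemopexin (Hpx) binds free haem, and both are abundant in plasma at rest. Hp was at 3485, 3893 and 11488 CPM in vehicle, 3587, 4379 and 3996 CPM with AdipoRon, and 8152, 5981 and 5882 CPM with AdipoRonPEG5. Hpx was at 2569, 2798 and 9738 CPM in vehicle, 3529, 4047 and 3038 CPM with AdipoRon, and 7161, 6278 and 6674 CPM with AdipoRonPEG5. For both genes the AdipoRonPEG5 libraries lay above every AdipoRon library and above vehicle 1 and 2, and below vehicle 3. The excess of vehicle 3 over the mean of the other vehicle libraries was 3.11-fold for Hp and 3.63-fold for Hpx, and AdipoRonPEG5 1 exceeded its group's others only 1.37-fold and 1.11-fold. The log2 difference between the compounds was 0.74 ± 0.37 for Hp and 0.92 ± 0.41 for Hpx with all libraries. Without vehicle 3 and AdipoRonPEG5 1 it was 0.58 ± 0.11 and 0.88 ± 0.12.

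Il6ra, the interleukin-6 binding receptor subunit, ran the other way. Its levels were 84.0, 95.3 and 70.4 CPM in vehicle, 118, 68.8 and 77.6 CPM with AdipoRon, and 46.8, 49.4 and 59.9 CPM with AdipoRonPEG5. All 3 AdipoRonPEG5 libraries were below all 6 others, with a gap from 59.9 to 68.8 CPM, and vehicle 3 was the lowest of the vehicle libraries. The log2 difference was -0.68 ± 0.19 against vehicle and -0.76 ± 0.19 against AdipoRon, and that of AdipoRon against vehicle was 0.08 ± 0.18. Without vehicle 3 and AdipoRonPEG5 1 the first of these was -0.71 ± 0.22.

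Mt1 and Mt2 are the metallothioneins that most tissues, liver included, express, and they hold zinc and copper. Mt1 was at 135, 112 and 161 CPM in vehicle, 76.3, 34.8 and 72.7 CPM with AdipoRon, and 1273, 320.0 and 186 CPM with AdipoRonPEG5. Mt2 was at 24.8, 35.2 and 37.1 CPM in vehicle, 27.0, 9.22 and 25.1 CPM with AdipoRon, and 685, 148 and 80.1 CPM with AdipoRonPEG5. For both genes AdipoRonPEG5 did not overlap either other group, and the 3 vehicle libraries lay within 1.44-fold of each other for Mt1 and 1.5-fold for Mt2. Vehicle 3 therefore did not stand apart in the metallothioneins, although AdipoRonPEG5 1 did, at 5.04 and 6.01 times the mean of the other AdipoRonPEG5 libraries. AdipoRon was below vehicle in every library for Mt1, and its range overlapped that of vehicle for Mt2.

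The log2 difference of AdipoRonPEG5 from vehicle was 2.12 ± 0.58 for Mt1 and 3.24 ± 0.69 for Mt2, and without AdipoRonPEG5 1 it was 0.89 ± 0.31 and 1.83 ± 0.38. Against AdipoRon it was 3.28 ± 0.61 and 3.90 ± 0.72, and without that library 2.05 ± 0.32 and 2.49 ± 0.39. AdipoRon differed from vehicle by -1.15 ± 0.57 and -0.66 ± 0.68. In FPKM the ratio of Mt1 to Mt2 was 5.62, 3.28 and 4.48 in vehicle, 2.91, 3.89 and 2.98 with AdipoRon, and 1.91, 2.23 and 2.39 with AdipoRonPEG5. The ratio was lower in each AdipoRonPEG5 library than in any other library, so that Mt2 gained on Mt1 in this group. Mt1 and Mt2 transcripts were identical in 67.9% of aligned bases, less than the Saa1 and Saa2 pair.

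**Figure D2:**
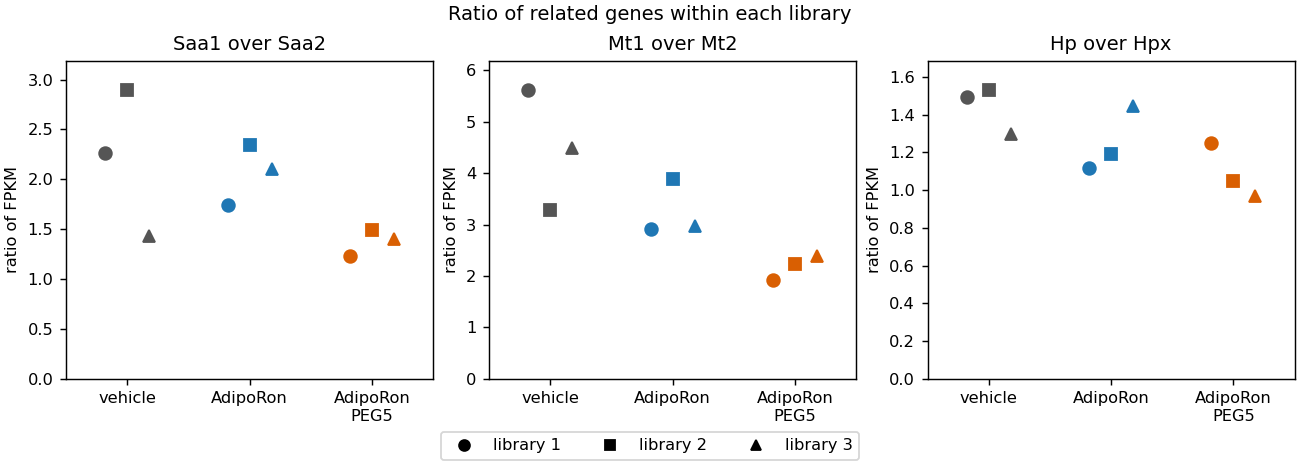
FPKM ratios of Saa1 to Saa2, Mt1 to Mt2 and Hp to Hpx (vertical axes, from 0) in each library, 1 point per library, coloured by group. Mt1 to Mt2 was 1.91 to 2.39 in the AdipoRonPEG5 libraries and at least 2.91 in the others.

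A gene was called at a Benjamini-Hochberg adjusted p under 0.05 in edgeR's quasi-likelihood test. For AdipoRonPEG5 against vehicle, Mt1 and Mt2 were called higher and Il6ra lower, 3 of the 10 where 17.2% of all 13151 genes were called (9.55% higher and 7.63% lower). These 3 were also the members whose groups did not overlap, as held for 35.2% of all genes (18.2% higher and 17.0% lower). For AdipoRon against vehicle 0 of the 10 were called, where 5.20% of all genes were (3.80% higher and 1.40% lower), and only Mt1 had groups that did not overlap, against 26.8% of all genes (14.4% higher and 12.4% lower). For AdipoRonPEG5 against AdipoRon, Mt1, Mt2 and Il6ra were called again, where 5.39% of all genes were (2.68% higher and 2.71% lower). Here the groups did not overlap for 8 of the 10, higher for 7 and lower for Il6ra, against 28.2% of all genes (13.9% higher and 14.3% lower), the exceptions being Saa1 and Saa2. The median log2 difference of the 10 was 0.25, -0.91 and 1.95 in the 3 comparisons, in the order given, and that of all genes -0.0013, 0.0057 and -0.013. Each pair of comparisons shares the libraries of 1 group, and the genes were chosen knowing these values, so that nothing is read from the counts.

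Leaving libraries out moved these counts. Vehicle 3 and AdipoRonPEG5 1 were picked for leaving out because they stood apart in these same genes. The calls without them therefore follow in part from that choice, and nothing is read from them. With vehicle 3 left out, AdipoRonPEG5 against vehicle had 9 of the 10 called higher and Il6ra lower, of 13423 genes tested with 9.60% and 7.79% called, and AdipoRon against vehicle had Saa3 called higher, with 3.51% and 1.14% of genes called. Without AdipoRonPEG5 1, AdipoRonPEG5 against vehicle left only Mt2 called, where 7.48% of genes were called higher and 5.58% lower. Without both libraries 8 were called higher, all but Mt1 and Il6ra, where 8.33% and 6.23% of genes were. AdipoRon against vehicle then had 5 called higher, Saa1, Saa2, Saa3, Lcn2 and Orm2, where 3.33% and 1.06% of genes were. The call of Il6ra against vehicle also ended without vehicle 1, without vehicle 2 or without AdipoRonPEG5 2, and that of Mt1 without vehicle 1 or vehicle 2. Between the compounds, Lcn2, Orm2, Hp, Hpx, Mt1 and Mt2 were called higher without vehicle 3, where 4.10% of genes were called higher and 3.58% lower. The same 6 were called higher without both libraries, where 2.84% and 2.06% of genes were. In that comparison the call of Mt1 ended without AdipoRon 3. That of Il6ra ended without vehicle 2, AdipoRon 1, AdipoRon 3 or any 1 of the AdipoRonPEG5 libraries.

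**Figure D3:**
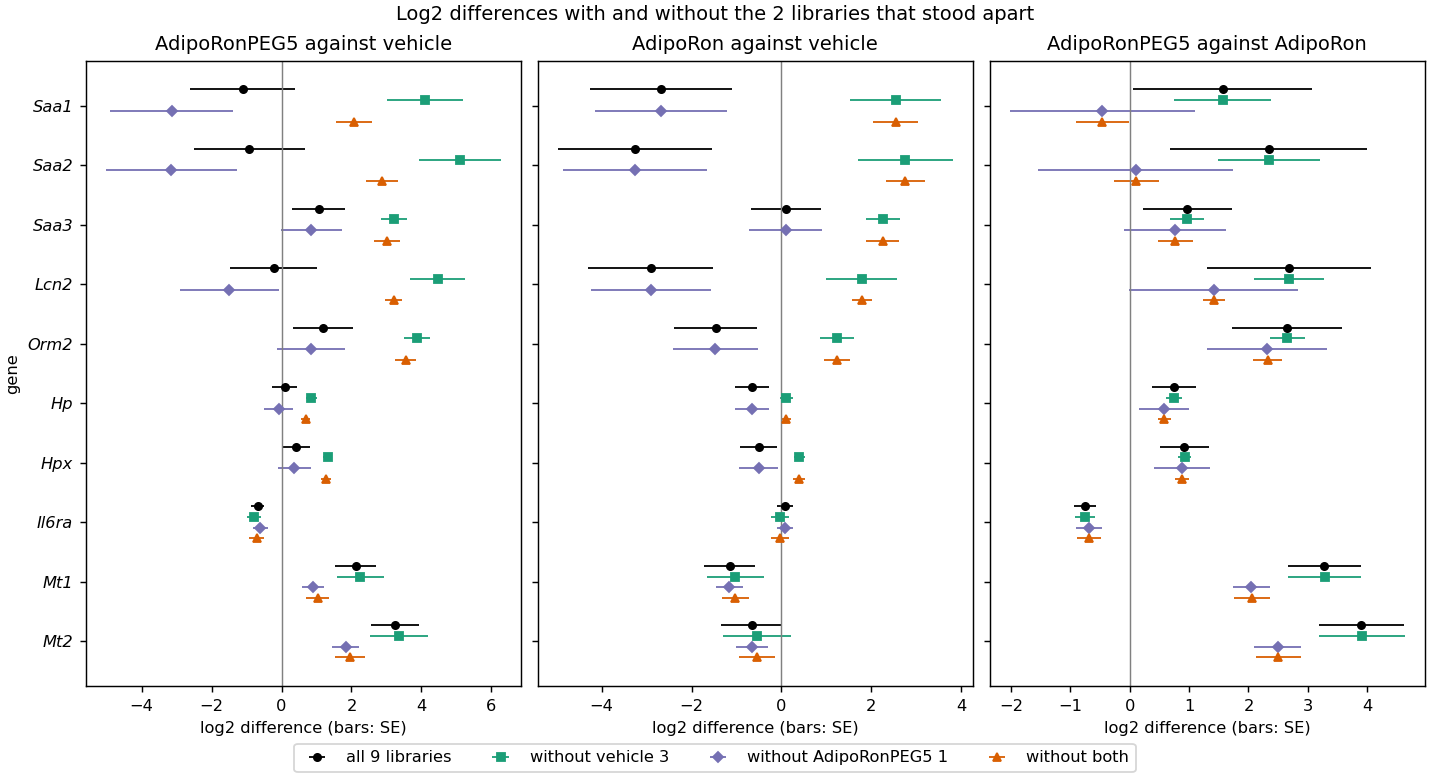
Log2 difference with its standard error for the 10 genes in the 3 comparisons, with all 9 libraries and with libraries left out. For AdipoRonPEG5 against vehicle, Saa1, Saa2 and Lcn2 lay below 0 with all libraries and above 0 without vehicle 3, while Saa3 (1.07) and Orm2 (1.18) lay above 0 with all libraries and higher without vehicle 3; Mt2 was above 0 in the comparisons with AdipoRonPEG5 in each setting drawn.

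The other genes of the acute phase programme were compared as a list of 33 tested genes. Against vehicle, 3 rose and 3 fell with AdipoRonPEG5, 2 rose and 0 fell with AdipoRon, and the median log2 difference was -0.063 and -0.26. Of all genes, 9.55% were called higher and 7.63% lower with AdipoRonPEG5, and 3.80% and 1.40% with AdipoRon. Between the compounds 2.68% of all genes were called higher and 2.71% lower. The count of rises with AdipoRonPEG5 was 9 without vehicle 3, and 1 without vehicle 2, AdipoRonPEG5 2 or AdipoRonPEG5 3. Between the compounds only the complement gene C3 was called, higher with AdipoRonPEG5 (log2 difference 0.67 ± 0.15, edgeR adjusted p = 0.0324), a call that ended without vehicle 2 or without any 1 treated library. Orm1, the closest relative of Orm2, was at 317, 361 and 1960 CPM in vehicle and at 1021, 786 and 719 CPM with AdipoRonPEG5, with AdipoRon between 404 and 707 CPM. Its log2 difference from vehicle was -0.06 ± 0.56 (edgeR adjusted p = 0.957). Without vehicle 3 it was 1.31 (edgeR adjusted p = 0.00393). Saa4, a serum amyloid A produced at rest, was at 442, 542 and 1315 CPM in vehicle and 708, 374 and 350.2 CPM with AdipoRonPEG5 (log2 difference -0.68 ± 0.38, edgeR adjusted p = 0.253), and thus carried the mark of the same 2 libraries. Serpina1b, an alpha-1-antitrypsin gene, fell with AdipoRonPEG5 (log2 difference -0.56 ± 0.098, edgeR adjusted p = 0.0036).

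In the list of interleukin-6, interleukin-1 and tumour necrosis factor signalling genes, 12 of 44 tested rose and 6 fell with AdipoRonPEG5 against vehicle, and 4 rose and 0 fell with AdipoRon. The shares of all genes called higher and lower were 9.55% and 7.63% with AdipoRonPEG5, and 3.80% and 1.40% with AdipoRon. The list also holds the transcription factor gene Onecut1. The rises with AdipoRonPEG5 numbered 6 without vehicle 2, and 7 without AdipoRonPEG5 1. Il1rap, the shared interleukin-1 receptor subunit, fell with AdipoRonPEG5 against vehicle (log2 difference -0.78 ± 0.09, edgeR adjusted p = 0.000476) and against AdipoRon (-0.58 ± 0.089, 95% confidence interval -0.78 to -0.39, edgeR adjusted p = 0.00647), as Il6ra was lower in both. Among the rises with AdipoRonPEG5 against vehicle were Irak1 (log2 difference 0.47 ± 0.07, edgeR adjusted p = 0.00171) and Onecut1 (2.54 ± 0.48, edgeR adjusted p = 0.00572). The 4 rises with AdipoRon were Tnf, Onecut1 (2.63 ± 0.48, edgeR adjusted p = 0.0138), Irak3 and Ptpn6. Tnf was at only 0.0591 ± 0.0531 CPM in vehicle. The calls of Onecut1, Irak3 and Ptpn6 with AdipoRon ended with some single libraries left out. Irak1 was also higher with AdipoRonPEG5 than with AdipoRon (0.33 ± 0.07, edgeR adjusted p = 0.0228). That call ended without any 1 AdipoRon library, without AdipoRonPEG5 1 or without AdipoRonPEG5 3. The partner subunit of Il6ra, Il6st, was at 117 ± 1.9, 138 ± 5.11 and 129.8 ± 10.3 CPM in vehicle, AdipoRon and AdipoRonPEG5 and passed in no comparison, with an interval between the compounds of -0.25 to 0.08 log2. Socs3, a target and brake of STAT3, was at 5.30, 5.68 and 19.0 CPM in vehicle and between 7.24 and 18.6 CPM in the treated libraries. Vehicle 3 was thus highest for Socs3 as for Saa1, whereas AdipoRon 1, with Saa1 among its group's lower values, was at 17.0 CPM for Socs3. Il6 itself had 1 count in all 9 libraries and was not tested. Cebpb, 1 of the C/EBP factors, fell with AdipoRonPEG5 against vehicle (log2 difference -0.69 ± 0.15, edgeR adjusted p = 0.0102).

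Of 31 tested genes of metal handling, 7 rose and 2 fell with AdipoRonPEG5 against vehicle and 6 rose and 2 fell against AdipoRon, while AdipoRon against vehicle had 0 called by edgeR. The shares of all genes called higher and lower were 9.55% and 7.63%, 2.68% and 2.71%, and 3.80% and 1.40% in these comparisons. The ferritin heavy chain gene Fth1, which stores iron, was at 1241 ± 111 CPM in vehicle, 1161 ± 125 CPM with AdipoRon and 2808 ± 291 CPM with AdipoRonPEG5 (log2 difference 1.18 ± 0.12 from vehicle, edgeR adjusted p = 0.000281). Slc39a4, a zinc importer, rose with AdipoRonPEG5 against vehicle (log2 difference 1.09 ± 0.16, edgeR adjusted p = 0.00178) and was higher than with AdipoRon (1.19 ± 0.16, edgeR adjusted p = 0.004). Neither gene stood out in AdipoRonPEG5 1, unlike Mt1 and Mt2: Slc39a4 was at 66.1, 67.1 and 84.8 CPM and Fth1 at 2649.7, 2630.2 and 3144 CPM in these libraries. Mtf1, the factor that acts on MREs, was at 19.6 ± 2.95, 17.4 ± 0.331 and 16.8 ± 0.216 CPM in the 3 groups, and Slc30a1, a zinc exporter that MTF1 also regulates, at 38.8 ± 6.7, 42.3 ± 3.28 and 46.6 ± 7.86 CPM; neither passed in any comparison by edgeR. For Mtf1 the interval of the difference between the compounds was -0.29 to 0.19 log2. The zinc importer Slc39a14 was at 269 ± 41.2, 281 ± 14.0 and 208 ± 45 CPM and passed in none.

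Genes that receive or clear the acute phase proteins, together with genes of haem handling, were a list of 21. Of these 6 rose and 1 fell with AdipoRonPEG5 against vehicle and 4 rose with AdipoRon. The shares of all genes called higher and lower were 9.55% and 7.63% with AdipoRonPEG5, and 3.80% and 1.40% with AdipoRon. Between the compounds they were 2.68% and 2.71%, and these shares also stand beside the lists that follow. The rises of lowest p were Blvrb, Slc48a1, Fpr2 and Hmox1 with AdipoRonPEG5, and the 4 with AdipoRon were Fpr2, Fpr1, Hmox1 and Tlr2. With AdipoRon, the calls of Hmox1 and Tlr2 ended with some single libraries left out. Fpr2 was at only 0.142 ± 0.0759 CPM in vehicle. Blvrb, an enzyme of haem breakdown, was at 117 ± 15.3 CPM in vehicle, 122 ± 8.03 CPM with AdipoRon and 328 ± 10.3 CPM with AdipoRonPEG5 (log2 difference between the compounds 1.42 ± 0.10, edgeR adjusted p = 3.52e-05). Cd163, the haptoglobin-haemoglobin receptor, and Lrp1, which takes up hemopexin, did not pass in any comparison. A list of 15 tested genes held glucocorticoid-inducible genes and Nr3c1, the gene of the glucocorticoid receptor. With AdipoRon against vehicle 2 rose, Klf9 (log2 difference 0.81 ± 0.13, edgeR adjusted p = 0.00805) and Nr3c1 (0.40 ± 0.086, edgeR adjusted p = 0.0268), and 1 fell, Tsc22d3. The calls of Nr3c1 and Tsc22d3 there ended with some single libraries left out. With AdipoRonPEG5 6 of the list fell and 1 rose against vehicle, and 4 were lower and 0 higher than with AdipoRon. The number of listed genes lower with AdipoRonPEG5 than with AdipoRon was 0 without AdipoRonPEG5 1 or AdipoRonPEG5 2, 1 without AdipoRon 1 or AdipoRon 3, and 2 without vehicle 2, AdipoRon 2 or AdipoRonPEG5 3. The gene called without AdipoRon 1 was not among the 4 called with all libraries. Tsc22d3 was at 273 ± 40.3, 153 ± 27.7 and 72.7 ± 22.9 CPM in vehicle, AdipoRon and AdipoRonPEG5 (log2 difference of AdipoRonPEG5 from vehicle -1.91 ± 0.21, edgeR adjusted p = 0.000423). Of 13 negative acute phase genes, those whose products fall in inflammation, 2 fell with AdipoRonPEG5 (Apoa1 and Rbp4) and 1 with AdipoRon (Fetub) against vehicle, and 0 rose in either. With AdipoRonPEG5 none of the 13 was called without AdipoRonPEG5 1 or AdipoRonPEG5 2; the call of Rbp4 ended without any 1 library other than vehicle 3. The call of Fetub ended without vehicle 2, AdipoRon 1 or AdipoRon 2.

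**Figure D4:**
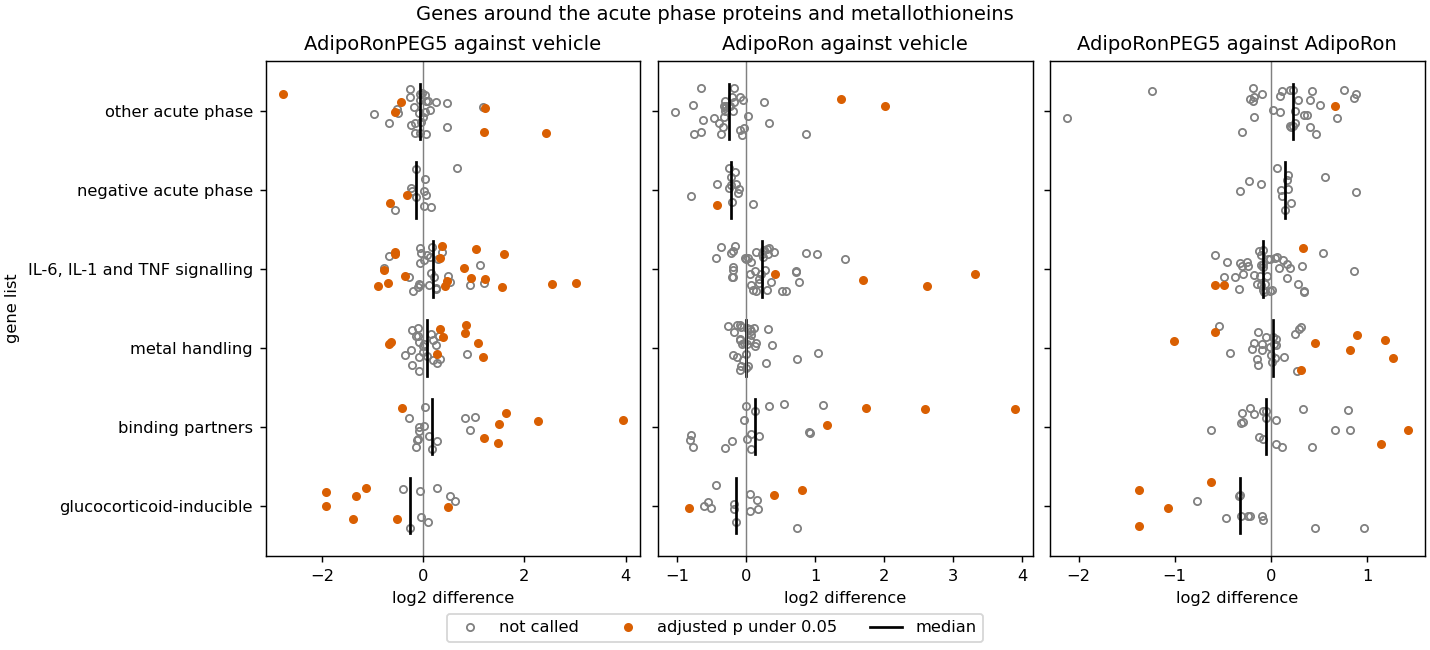
Log2 difference (horizontal axis) of each tested gene in 6 lists of related genes, 1 panel per comparison, with called genes filled, others open and a line at the list median; heights within a list are spread at random. Called metal handling genes appear in both comparisons with AdipoRonPEG5, and AdipoRon against vehicle has 0.

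To see which genes moved from library to library as Saa1 did, group means of log2 CPM were removed and Pearson's r was taken over the 9 libraries among 11115 genes with a mean of at least 1 CPM. Of the other members, r with Saa1 was 0.997 for Saa2, 0.986 for Lcn2, 0.970 for Hp, 0.961 for Orm2, 0.944 for Saa3 and 0.921 for Hpx. It was -0.58 for Il6ra, 0.42 for Mt1 and 0.35 for Mt2, so that the metallothioneins did not share the ranking. Outside the 10 genes, the 8 highest were Dnajc12, Chst13, Tmem120b, Fgg, Prtn3, Fga, Slc41a2 and Snrpa, with r of 0.981 to 0.994. The lowest r among the 11115 genes was as extreme, at -0.995. Fgg and Fga encode fibrinogen chains, which are acute phase proteins, and Prtn3 is the neutrophil granule protease described beside Lcn2. Fgg was at 2548, 2558 and 5400 CPM in vehicle and 4514, 2722 and 2725 CPM with AdipoRonPEG5. These values rest on 9 libraries, of which vehicle 3 and AdipoRonPEG5 1 stood furthest above their groups in Saa1. Over the other 7 libraries r with Saa1 was 0.71 for Hp, 0.80 for Hpx, 0.87 for Orm2, 0.97 for Fgg and 0.63 for Snrpa. It was 0.97 for Saa2, 0.93 for Lcn2 and Fga, 0.94 for Dnajc12 and 0.999 for Prtn3. Prtn3 held 62 counts in AdipoRon 2 and between 6 and 24 in each of the others of these 7, so that its value rests on AdipoRon 2. Among these 7, AdipoRon 2 held the Saa1 value furthest from its group, at 497 CPM against 152 and 140.1 CPM. For Mt1 over these 7, r with Saa1 was -0.76, and the r of Mt1 with Mt2 was 0.97 over 9 libraries and 0.90 over 7. The 8 genes outside the 10 most like Mt1 over 9 libraries had r of 0.934 to 0.972. They were Eif2b3, Eef1e1, Btbd3, Pnpt1, Pcyox1l, Nop58, Etv5 and S100a1.

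**Figure D5:**
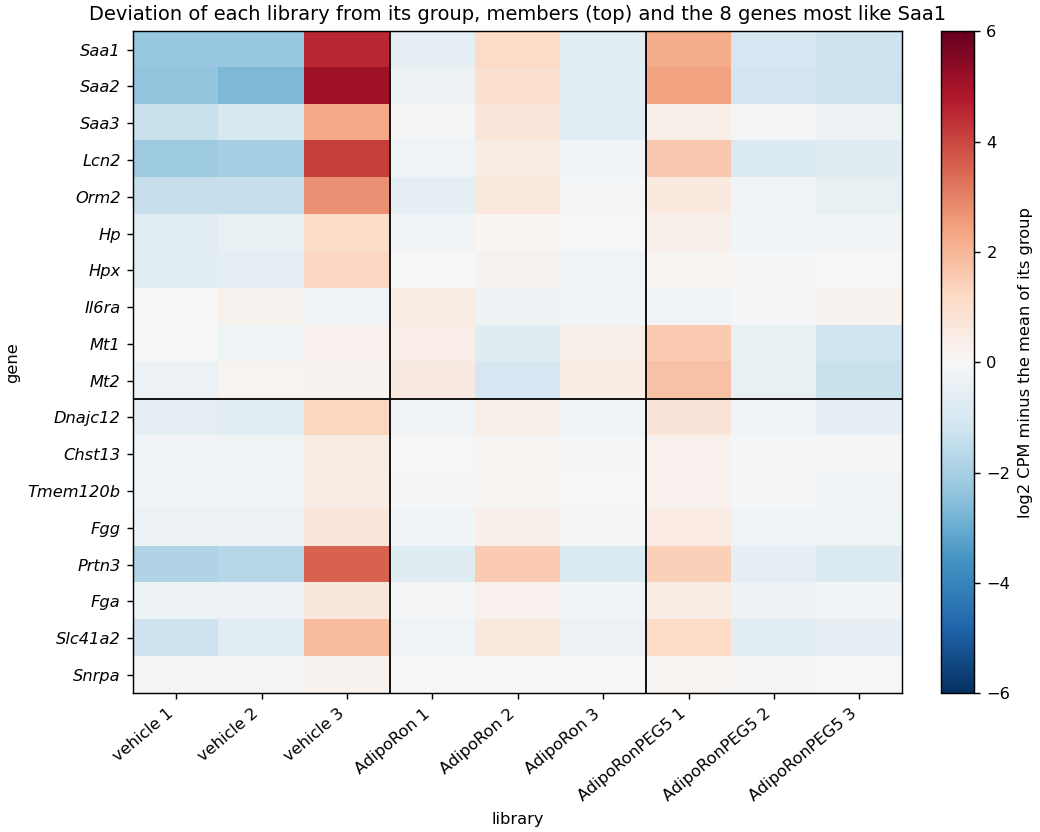
Log2 CPM of the 10 genes and of the 8 genes most like Saa1, as the deviation of each library from its group mean, with blue below and red above the mean. Vehicle 3 was above and vehicle 1 and 2 below the vehicle mean for Saa1, Saa2, Saa3, Lcn2, Orm2, Hp and Hpx, while Mt1 and Mt2 deviated most in AdipoRonPEG5.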

How the data were processed

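Liver RNA of 9 libraries was compared in 3 groups of 3. The authors deposited raw counts and FPKM values side by side, per the file headers. STAR 2.5, HTSeq 0.6.1, TopHat, edgeR and DESeq2 are named in the submitters' processing notes without saying what each did. The build, the annotation, strandedness and filters are not given in the sources used here. Counts were fitted in R 4.3.3 with edgeR 4.0.16 (TMM, filterByExpr, quasi-likelihood, 3 group means, all 9 libraries, no block), with a Benjamini-Hochberg threshold of 0.05 over 13151 tested genes. Of 35275 entries, 126 share a name with another. Log CPM used a prior count of 2. The FPKM was used only for ratios and levels between genes. The members, lists and rules were chosen with earlier results of these data known. Named outside the 10 genes were up to 4 called genes per list and comparison by lowest p, the direct partners whatever their test, and the 8 genes most like Saa1 and Mt1. Alternatives were other scalings and filters, DESeq2 1.42.0, voom in limma 3.58.1, a fit of only the groups compared, each library left out, a block for the replicate number, and vehicle 3 with AdipoRonPEG5 1 left out. After removing group means, the r of same-numbered libraries was -0.27 to 0.077 and that of differently numbered ones -0.30 to 0.32. This cannot decide whether replicate numbers pair the libraries, because deviations within a group of 3 are bound to sum to 0. In simulated data of AdipoRonPEG5 against vehicle with 13151 genes, edgeR recovered 25 of 65 changes of 1.5-fold (38.5%). It recovered 51 of 72 changes of 2-fold (70.8%) and 61 of 63 of 4-fold (96.8%). Totals ran from 13942322 to 39473195 counts.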

Additional observations from a re-analysis of the deposited data

How the results depend on the processing

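The number of genes called, 2260 for AdipoRonPEG5 against vehicle, 684 for AdipoRon against vehicle and 709 for AdipoRonPEG5 against AdipoRon, ranged with 1 library left out from 1337 to 2334, from 250 to 624 and from 233 to 1032. With only the groups compared, AdipoRon against vehicle had 325. With a replicate block the counts were 1763, 444 and 338, though it is not known whether the replicate numbers pair the libraries. Of 52 calls of named genes, 30 held in every alternative and 22 ended in at least 1. With 1 library left out, the log2 difference of AdipoRonPEG5 from vehicle ran from -0.47 to 1.31 for Orm1 and from -0.59 to 0.72 for Lrg1. Both had the positive value without vehicle 3, and Orm1 was at 1.15 with AdipoRonPEG5 1 also left out; the cause was not tested. Among the 10 genes, limma-voom called Saa3, Orm2 and Mt2 higher and Il6ra lower in that comparison. The call of Il6ra there ended with total count scaling and with the block, and that of Mt1 with limma-voom and with the block. With only the groups compared, Lcn2, Orm2, Hp and Hpx joined Mt1 and Mt2 as higher between the compounds. In the simulated data 25 of 65 changes of 1.5-fold were recovered (38.5%). Far fewer genes were changed there than the 2260 called here, so that these rates need not hold for the real comparison.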
